A study of Mus musculus with 3 samples.

Results

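The Hox genes of the 4 mouse clusters A, B, C and D were followed by RNA sequencing in sorted cells of the embryonic dorsal root ganglion (DRG), in 3 libraries from pooled embryos. Members were chosen by name, as the 38 listed Hox symbols matched to Ensembl identifiers, out of 41388 genes in the deposited tables, and no measured value entered the choice. Clusters A and B hold 10 members each, and clusters C and D hold 9 each. The libraries form a single group without a second condition, so the comparisons are between members, clusters and libraries.

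All 3 libraries came from embryos at 12.5 days post coitum on the C57BL/6 strain in which EGFP reports on Ret, a receptor tyrosine kinase that responds to GDNF and its relatives. The sample labels write the genotype as Tg(Ret-EGFP)SJ/, a transgene, whereas the series text describes EGFP placed in 1 Ret allele, and the sources used here do not settle which is meant. Library B pooled 340 ganglia of 17 embryos, library C 300 ganglia of 15 embryos and library D 60 ganglia of 3 embryos. The ganglia were taken between spinal levels T11 and S1, embryos of both sexes were mixed, and cells were recovered by flow sorting. A library therefore averages over segments, sexes, embryos and sorted cell classes, and in such bulk samples fewer cells of a type and less RNA per cell cannot be told apart.

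Hox genes encode homeodomain transcription factors that give cells their position along the head-to-tail axis. Within a cluster they are numbered from the 3′ end, where the anterior paralogs lie, to the 5′ end, where the posterior paralogs lie, and expression borders follow that order. Genes with the same number in different clusters are paralogs. In the trunk, paralogs of the middle and posterior groups are the ones known to mark thoracic and lumbar levels. Neurons of the DRG arise from neural crest of the trunk and express Hox genes according to their axial level.

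Total counts were between 11666241 in C and 20966139 in D, and between 10861 and 15075 of them fell on Hox genes. Levels are given below as TPM, the count per base of gene length scaled to the same sum over all genes of a library, so that genes of different length can be compared. Of all genes in the tables, 28.7% were at or above 1 TPM in every library. Sensory neuron markers passed this limit for 7 of 7 genes, with a summed level of 28950.6 TPM in B, 20773.2 TPM in C and 17399.2 TPM in D. Most of that sum came from Tubb3 (17900.9, 9716.4 and 9264.9 TPM) and Stmn2 (9308.9, 8844.0 and 6164.8 TPM). Ret was at 26.9, 33.5 and 60.9 TPM. Glial markers also passed for 5 of 5 genes, at 2992.2, 1453.6 and 4624.4 summed TPM in B, C and D. None of 5 spinal cord markers passed (0.627, 0.0285 and 0.228 summed TPM), with Olig2 and Lbx1 at 0 counts in every library. Mesenchyme markers passed for 2 of 5 genes, at 17.2 TPM in B, 15.5 TPM in C and 80 TPM in D, and skeletal muscle markers for 0 of 4 genes, at 11.2, 0.309 and 15.1 TPM. Sympathetic markers passed for 3 of 3 genes, at 213, 194 and 70.5 TPM, and motor neuron markers for 2 of 4, at 70.7, 80 and 61.3 TPM, most of it from Isl2, which sensory neurons also express. Nephric duct markers passed for 1 of 4 genes (4.4, 2.96 and 2.65 TPM), macrophage markers for 1 of 2 (27.7, 25.4 and 19 TPM), endothelial markers for 0 of 2 (3, 0.71 and 3.21 TPM) and erythroid markers for 2 of 2 (2487.6, 1255.8 and 352 TPM). The part of such cells in the Hox levels was not tested.

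Hox genes were detected, meaning at or above 1 TPM in every library, for 22 of 38 members (57.9%), beside 28.7% of all genes in the tables. Detection took in 6 of 10 members in cluster A, 5 of 10 in cluster B, 6 of 9 in cluster C and 5 of 9 in cluster D. Another 7 members reached 1 TPM in some libraries only (Hoxa3, Hoxa6, Hoxa11, Hoxb2, Hoxb4, Hoxc5 and Hoxc13). The remaining 9 stayed under it in every library (Hoxa13, Hoxb1, Hoxb3, Hoxb13, Hoxc12, Hoxd3, Hoxd4, Hoxd12 and Hoxd13). The median member had a mean level of 2.94 TPM, beside 0.0939 TPM over all genes. Among detected genes alone the medians were 17.8 TPM for Hox genes and 13.6 TPM for all. Together the 38 members made up 0.0583%, 0.0664% and 0.072% of the summed TPM in B, C and D, or 583.4, 663.6 and 720.1 TPM.

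**Figure D1:**
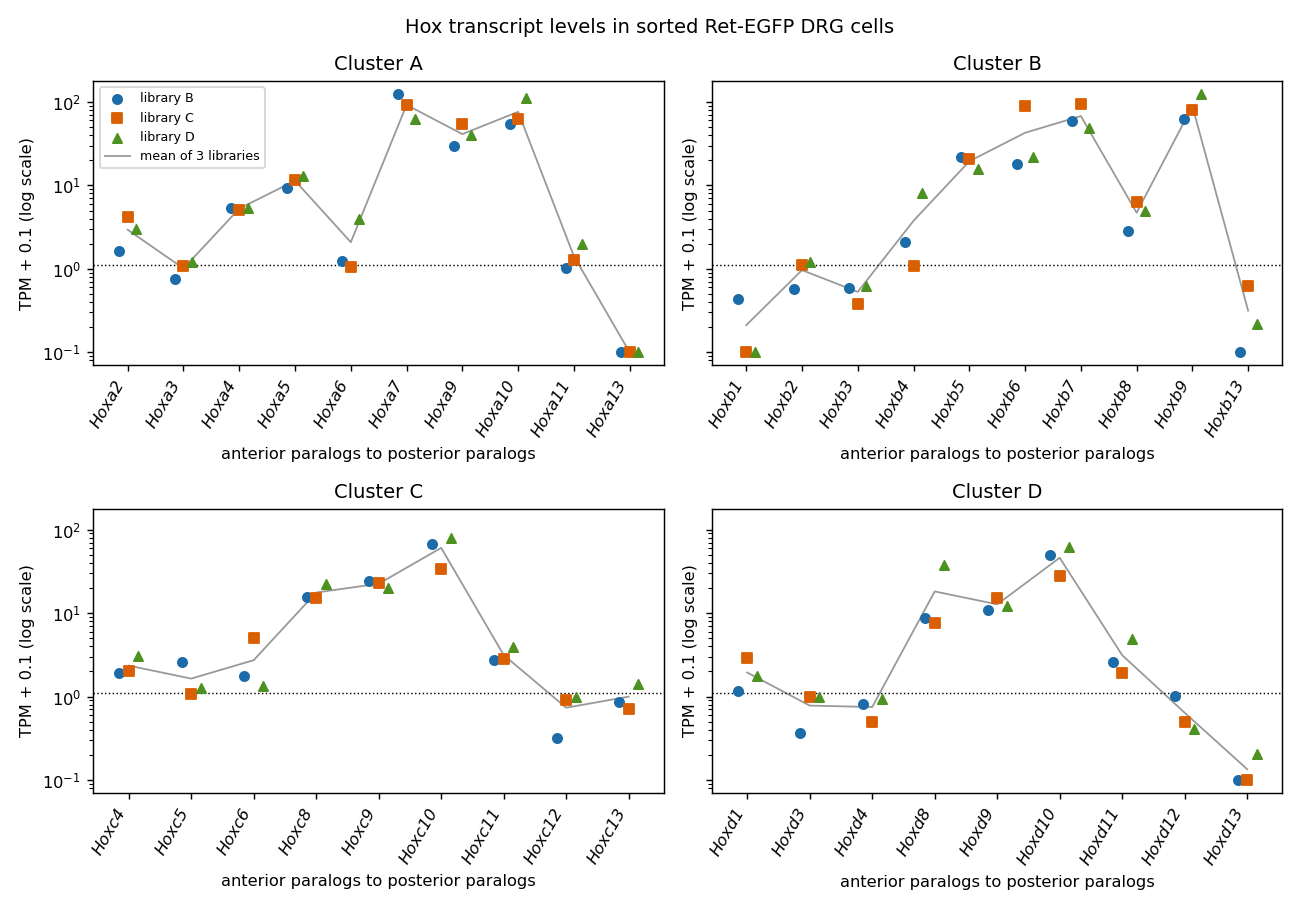
Level of every Hox gene as TPM + 0.1 on a log scale, in library B (circles), C (squares) and D (triangles), with a line through the mean of the 3 libraries and a dotted line at the detection limit of 1 TPM. Within each cluster genes run along the horizontal axis with anterior paralogs at the left, and the levels peak in groups 7 to 10 before they drop at group 11, or at Hoxb13 in cluster B.

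Cluster A lies on chromosome 6 between 52162511 and 52260880 (GRCm38, minus strand, 98.4 kb between the outermost members). Its genes take part in patterning hindbrain, trunk and limb, as genes of other clusters do, and it held Hoxa7, the Hox gene with the highest mean level. Hoxa7 (ENSMUSG00000038236, 52214491 to 52221854) stood at 123 TPM in B, 90.6 TPM in C and 62.8 TPM in D, a mean of 92.1 ± 30.2 TPM (SD, n = 3). Library B was highest and D lowest, Hoxa7 led all members in B only, and 96% of all genes had a mean at or below it. Hoxa10 (ENSMUSG00000000938, 52231197 to 52240854), a regulator of lumbar identity, was at 54.5 TPM in B, 63.1 TPM in C and 111 TPM in D. Here the order of libraries was the opposite one, with D highest. Hoxa9 was at 29.9, 53.7 and 39.7 TPM in B, C and D.

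The anterior members of cluster A were lower. Hoxa5, known from lung and cervicothoracic patterning, stood at 9.33 TPM in B, 11.6 TPM in C and 13 TPM in D. Hoxa4 had the narrowest range of all detected members, at 5.29, 5.02 and 5.21 TPM. Hoxa2, which acts in hindbrain and arch patterning, was at 1.52, 4.07 and 2.93 TPM, and Hoxa3, a regulator of pharyngeal organs, at 0.66, 0.97 and 1.1 TPM. Hoxa6 lay between the higher Hoxa5 and Hoxa7, at only 1.14, 0.95 and 3.86 TPM. From Hoxa6 to Hoxa7 the log2 level differed by 5.68 ± 1.47 (SD, n = 3), the largest upward step between neighbours in the cluster.

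The posterior edge of cluster A was the sharpest one measured between neighbouring members that were both counted in every library. Hoxa11 (ENSMUSG00000038210, 52242106 to 52245810), a gene of limb, kidney and sacral patterning, stood at 0.92 TPM in B, 1.17 TPM in C and 1.87 TPM in D. Hoxa10 exceeded it by 59.2-fold in B, 54.1-fold in C and 59.1-fold in D. On the log2(TPM + 0.1) scale Hoxa11 minus Hoxa10 was -5.73 ± 0.08 (SD, n = 3). The edge of each cluster was taken as the last detected gene and the next gene on its 5′ side, so these levels chose the pair, and the step is a description without a test. Hoxa13, which acts in the distal limb and hindgut, had 0 counts in every library. A count of 0 allows up to 3 counts, or 0.135 TPM in B, 0.202 TPM in C and 0.157 TPM in D, so Hoxa11 was at least 6.85-fold, 5.76-fold and 11.9-fold higher than Hoxa13.

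The start sites on either side of that edge are printed here because they flank the steepest of these steps, 250 bases before to 50 bases after each RefSeq start in GRCm38.p6, minus strand, 5′ to 3′. Capitals mark matches to the 3 motifs named after the sequences, read on either strand.
Hoxa11, chr6:52245761-52246060: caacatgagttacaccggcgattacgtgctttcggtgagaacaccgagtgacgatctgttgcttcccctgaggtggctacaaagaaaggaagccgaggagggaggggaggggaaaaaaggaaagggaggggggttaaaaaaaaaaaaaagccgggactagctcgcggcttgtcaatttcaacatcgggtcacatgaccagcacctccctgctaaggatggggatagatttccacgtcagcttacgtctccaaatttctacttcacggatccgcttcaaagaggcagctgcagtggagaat
Hoxa10, upstream start, chr6:52240805-52241104: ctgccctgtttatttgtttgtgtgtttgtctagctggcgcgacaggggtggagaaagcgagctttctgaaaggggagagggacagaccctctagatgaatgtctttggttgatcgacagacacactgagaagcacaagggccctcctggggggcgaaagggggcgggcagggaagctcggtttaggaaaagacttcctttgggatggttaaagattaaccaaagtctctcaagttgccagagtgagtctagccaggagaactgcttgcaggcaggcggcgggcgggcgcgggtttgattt
Hoxa10, downstream start, chr6:52234890-52235189: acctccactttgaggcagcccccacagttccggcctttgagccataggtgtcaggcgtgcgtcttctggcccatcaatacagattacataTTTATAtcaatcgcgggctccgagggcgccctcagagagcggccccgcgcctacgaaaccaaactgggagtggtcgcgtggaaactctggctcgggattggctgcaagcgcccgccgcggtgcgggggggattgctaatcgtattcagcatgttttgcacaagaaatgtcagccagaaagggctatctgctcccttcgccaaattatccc
The downstream Hoxa10 window held 1 TATAAA match, while the upstream Hoxa10 window and the Hoxa11 window held none. CG dinucleotides numbered 15 in the Hoxa11 window and 12 and 21 in the upstream and downstream Hoxa10 windows, beside a median of 14 in 24 windows of Hox genes and of 7 in all 32851 promoter windows. TATAAA occurred in 4 of the 24 Hox windows (16.7%), beside 13.6% of all windows. The HOX-type motif TTTATNG occurred in 2 of 24 (8.33%), beside 10.9%, and the PBX-HOX-type motif TGATTNAT in 2 of 24 (8.33%), beside 3.22%, with both strands read each time. The tables used here hold windows for part of the members, some with more than 1 start.

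Cluster B lies on chromosome 11 between 96194316 and 96368256 (plus strand, 174 kb), the longest of the 4 spans. Hoxb9 (ENSMUSG00000020875, 96271457 to 96276595), a gene of thoracic identity, had the highest mean of its members, at 61.9 TPM in B, 79.4 TPM in C and 125 TPM in D. Hoxb7 (ENSMUSG00000038721) stood at 59.0, 95.2 and 48.9 TPM, and Hoxb5 at 21.7, 20.7 and 15.7 TPM in B, C and D. In library C both Hoxb7 and Hoxb6 were above Hoxb9, and neither was apart from it over the 3 libraries. Hoxb6 (ENSMUSG00000000690, 96292476 to 96301569) was at 17.8 TPM in B and 21.8 TPM in D, but at 88.2 TPM in C. Library C thus stood 4.96-fold above the lowest library for Hoxb6, whereas its neighbour Hoxb5 differed between libraries by 1.38-fold and its neighbour Hoxb7 by 1.95-fold.

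Hoxb8, the gene between Hoxb7 and Hoxb9, broke the run of high levels in cluster B. It stood at 2.74 TPM in B, 6.27 TPM in C and 4.83 TPM in D. Hoxb7 exceeded it by 21.6-fold, 15.2-fold and 10.1-fold, and Hoxb9 by 22.6-fold, 12.7-fold and 25.8-fold in B, C and D. As log2, Hoxb8 minus Hoxb7 was -3.87 ± 0.53 and Hoxb9 minus Hoxb8 was 4.25 ± 0.54 (SD, n = 3), with the same sign in 3 of 3 libraries. Hoxb8 shares no exon bases with another feature of the tables, so no overlapping feature takes part of its count. This pair of steps was picked out after the values were seen.

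The anterior members of cluster B fell away towards the 3′ end. Hoxb4 was at 1.99 TPM in B, 0.97 TPM in C and 8.04 TPM in D, a range of 8.25-fold. Hoxb2 and Hoxb3, which act in the hindbrain, were at 0.48, 1.00 and 1.12 TPM and at 0.50, 0.27 and 0.52 TPM. Hoxb1, a gene of rhombomere identity, had 7 counts in B (0.33 TPM) and 0 counts in C and D, which allows up to 0.215 TPM in C and 0.168 TPM in D.

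At the posterior end of cluster B a long interval separates Hoxb9 from Hoxb13, a gene of the tail bud and hindgut. Hoxb13 had 0 counts in B, 7 counts in C (0.53 TPM) and 2 counts in D (0.12 TPM). Hoxb9 was at least 411-fold higher in B, 150-fold higher in C (95% counting interval 72.9 to 373) and 1059-fold higher in D (293 to 8747). The log2 difference of Hoxb13 minus Hoxb9 was -8.47 ± 1.29 (SD, n = 3), and its size depends on the pseudocount because Hoxb13 is near 0.

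Cluster C lies on chromosome 15 between 102921103 and 103036852 (plus strand, 116 kb). Hoxc10 (ENSMUSG00000022484, 102966796 to 102971893), a gene of lumbar motor and skeletal patterning, led it at 67.2 TPM in B, 33.8 TPM in C and 80.3 TPM in D. Hoxc9, which marks thoracic levels in the spinal cord, was at 24.4, 22.9 and 19.8 TPM, and Hoxc8 at 15.3, 15.0 and 22.4 TPM in B, C and D. Library C was the lowest for Hoxc10, and the 3 libraries lay within 1.23-fold of each other for Hoxc9. Hoxc6, which marks forelimb levels, was high in C, at 4.99 TPM, against 1.66 TPM in B and 1.24 TPM in D. Hoxc5 stood at 2.48, 0.97 and 1.18 TPM and Hoxc4 at 1.81, 1.95 and 2.98 TPM.

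The drop in cluster C came between Hoxc10 and Hoxc11. Hoxc11, a gene of lumbosacral levels, was at 2.63 TPM in B, 2.72 TPM in C and 3.79 TPM in D, and Hoxc10 exceeded it by 25.5-fold, 12.4-fold and 21.2-fold. Hoxc11 minus Hoxc10 was -4.19 ± 0.54 as log2 (SD, n = 3). Because Hoxc11 itself was detected, the edge by the detection limit fell 1 gene further on, at Hoxc12 minus Hoxc11 (-2.25 ± 0.77, SD, n = 3). Hoxc12 was at 0.22, 0.81 and 0.88 TPM. Hoxc13, known for its part in hair and nail growth, was at 0.77 TPM in B, 0.61 TPM in C and 1.32 TPM in D, so the posterior end of cluster C was low but not at 0.

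Cluster D lies on chromosome 2 between 74668310 and 74765142 (plus strand, 96.8 kb). Hoxd10 (ENSMUSG00000050368, 74691924 to 74695105), a lumbar paralog of Hoxa10 and Hoxc10, was its highest member at 49.2 TPM in B, 27.4 TPM in C and 61.1 TPM in D. Hoxd9 was at 10.9, 15.1 and 11.9 TPM. Hoxd8 (ENSMUSG00000027102, 74704615 to 74707933) was at 8.65 TPM in B and 7.47 TPM in C, but at 38.1 TPM in D. The value in D was 5.10-fold above that in C, the widest range among detected members, while Hoxd9 beside it differed by 1.4-fold. Hoxd11 was at 2.50, 1.82 and 4.77 TPM, and Hoxd10 exceeded it by 19.7-fold in B, 15-fold in C and 12.8-fold in D.

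Hoxd12 and Hoxd13, genes of digit and genital patterning, were at 0.92, 0.39 and 0.31 TPM and at 0, 0 and 0.10 TPM in B, C and D. Hoxd12 minus Hoxd11, the edge by the detection limit, was -2.30 ± 1.15 as log2 (SD, n = 3). Hoxd11 minus Hoxd10 was the larger step, at -3.91 ± 0.30. At the anterior end, Hoxd1 was at 1.07, 2.78 and 1.67 TPM, Hoxd3 at 0.26, 0.88 and 0.90 TPM and Hoxd4 at 0.71, 0.40 and 0.84 TPM. Exons of Hoxd3 and Hoxd4 overlap each other and other features over 62.9% and 52.3% of their bases, so their counts cannot be assigned to either gene with certainty. The step from Hoxd4 to Hoxd8 was 4.24 ± 1.00 as log2, the largest upward step of cluster D.

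The largest downward step of a cluster therefore lay between group 10 and group 11 in A, C and D, and between Hoxb9 and Hoxb13 in B, which has no member of groups 10 to 12. The steps between groups 10 and 11 in C and D were added after the values were seen. Hoxa11 minus Hoxa10 was the most negative of the 3 such steps in every library. Over the summed levels, group 10 exceeded group 11 by a log2 of 4.82 (B), 4.44 (C) and 4.59 (D), with a mean of 4.62 ± 0.19 (SD, n = 3).

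**Figure D2:**
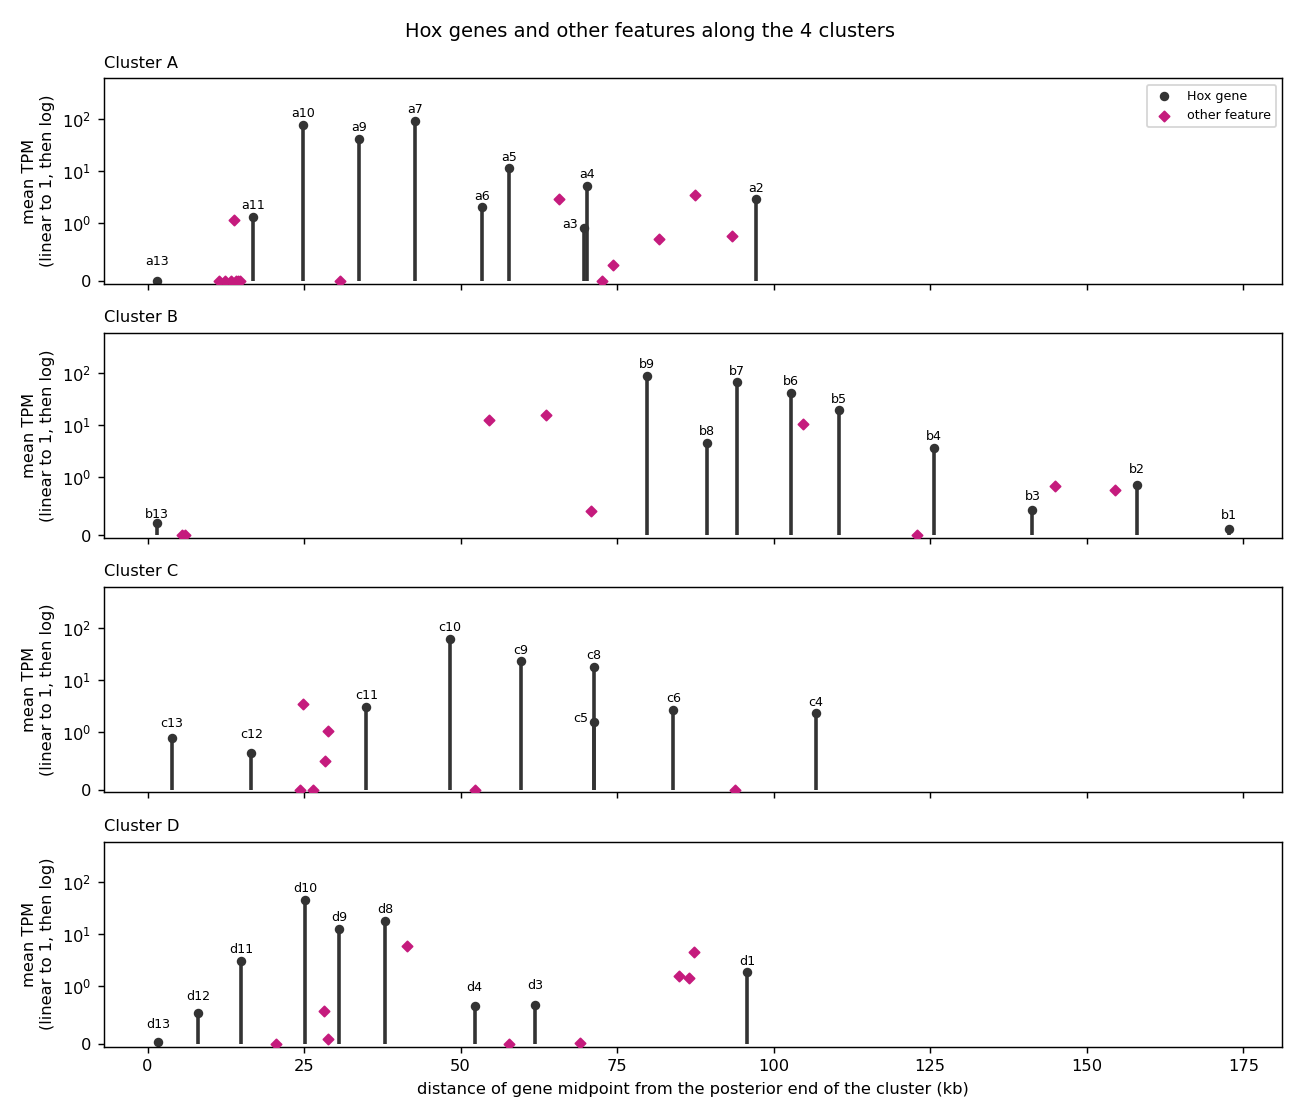
Mean TPM over the 3 libraries of each Hox gene (dark stems) and each other feature (diamonds) by distance of its midpoint from the posterior end of the cluster in kb, 1 panel per cluster, with a vertical scale that is linear to 1 and logarithmic above. High stems stand together in the posterior middle of each cluster, with Hoxa13 and Hoxd13 near 0 at the posterior end, and low Hoxb8 stands between high Hoxb7 and Hoxb9.

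Clusters A and B contributed similar shares of the summed Hox TPM. Cluster A held 38.8% in library B, 34.8% in library C and 33.5% in library D (mean 35.7% ± 2.76, SD, n = 3), and cluster B held 28.5%, 44.1% and 31.3% in those libraries (34.6% ± 8.29). Cluster B exceeded A in library C only. Cluster C held 20%, 12.6% and 18.6% (17.1% ± 3.9) and cluster D 12.7%, 8.48% and 16.6% (12.6% ± 4.07), so that both were below A and B in each library. The similar shares of A and B were not kept when members with overlapping exons were left out, nor by CPM, which ignores gene length. Without the 15 members that share exon bases with another feature, Hoxa7 and Hoxa9 among them, A held 23.5% ± 5.49 and B 54.5% ± 8.77. By CPM, with all members, A held 48.7% ± 3.87 and B 27.6% ± 5.57.

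Among paralog groups, groups 7, 9 and 10 carried the largest shares. Group 10 held 29.3% (B), 18.7% (C) and 35% (D) of the summed Hox TPM, group 9 held 21.8%, 25.8% and 27.2%, and group 7 held 31.2%, 28% and 15.5%. Group 10 over group 7 was -0.09, -0.58 and 1.17 as log2 in B, C and D, so group 10 was the lower of the pair in B and C and the higher in D. Without the members that share exon bases, group 9 held 32.8% ± 4.27, above group 10 at 19.9% ± 5.07 and group 7 at 18.3% ± 6.29. Group 8, between them, held only 4.58%, 4.32% and 9.07%. Group 6 held 14.2% in C, nearly all from Hoxb6, against 3.53% in B and 3.74% in D, and group 5 held 5.75%, 5% and 4.15% in B, C and D.

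**Figure D3:**
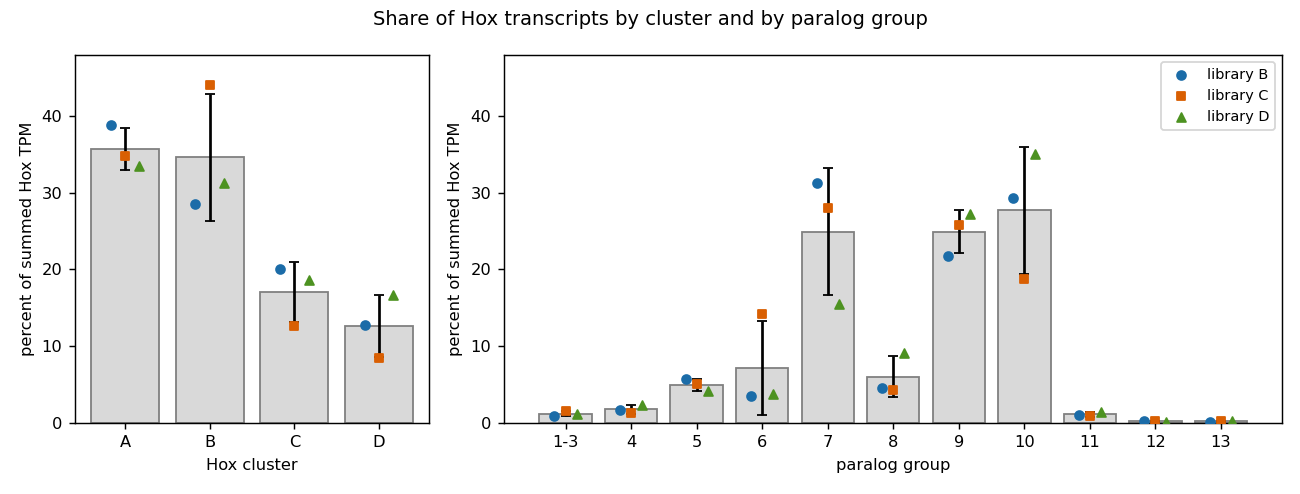
Percent of the summed Hox TPM held by each cluster (left) and each paralog group (right), with bars for the mean, error bars for the SD over 3 libraries and a point per library. Groups 7, 9 and 10 stand near 25% with overlapping points, group 8 is low between them, and groups 11 to 13 together hold 1.47%.

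Within a paralog group the clusters did not share evenly. In group 9, Hoxb9 made up 48.7% of the group in B, 46.4% in C and 63.6% in D, and Hoxd9 8.54%, 8.85% and 6.07%. Group 10 was more even, with mean shares of 42.2% ± 9.57 for Hoxa10, 32.8% ± 6.12 for Hoxc10 and 25% ± 3.46 for Hoxd10 (SD, n = 3). Hoxa7 and Hoxb7 held 57.5% and 42.5% of group 7, each ± 9.49, and Hoxb7 was the higher in C. Hoxb6 made up 87% ± 6.35 of group 6, and Hoxb5 59.9% ± 6.46 of group 5. Group 8 changed its leader between libraries: Hoxc8 held 57.4% in B and 52.1% in C, and Hoxd8 58.4% in D. In group 11, Hoxc11 and Hoxd11 had 42.5% ± 5.76 and 39.6% ± 7.08, and Hoxa11 17.9% ± 2.61.

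Ordered by mean TPM, the 10 highest members were Hoxa7, Hoxb9, Hoxa10, Hoxb7, Hoxc10, Hoxd10, Hoxb6, Hoxa9, Hoxc9 and Hoxb5. Most neighbours in the order of all 38 did not differ beyond their spread: for 30 of 37 neighbouring pairs the log2 ratio changed sign between libraries or did not exceed its SD. Of the 45 pairs among the 10 highest, 26 kept their sign in 3 of 3 libraries with a mean above the SD. Hoxa7 and Hoxb9, at the top, were not apart (0.06 ± 0.99 as log2). Hoxb9 was above Hoxa10 in 3 of 3 libraries, by 0.23 ± 0.09, and Hoxc10 above Hoxd10 by 0.38 ± 0.07 (SD, n = 3). Hoxa9 was above Hoxc9 by 0.84 ± 0.49 and Hoxc9 above Hoxb5 by 0.22 ± 0.10. The levels had been seen before this order was drawn up, so it is a description without a test.

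The ranking of the 38 members was alike in the 3 libraries. Spearman's rho over these genes was 0.939 for B with C, 0.958 for B with D and 0.936 for C with D, as a description across genes that share a library and are not independent replicates. Detected Hox genes had a median SD of log2 TPM over libraries of 0.503, beside 0.646 over all 11896 detected genes and 0.696 over the 9940 detected genes in the same range of mean TPM. Their median ratio of highest to lowest library was 1.99, beside 2.35. By CPM with library scaling factors, the median SDs of Hox genes and of all genes lay closer together. They were 0.521 beside 0.572 with TMM factors, and 0.55 beside 0.572 with DESeq2 factors. The smaller spread of Hox genes by TPM thus depends in part on the scaling. Only Hoxb6, Hoxc6 and Hoxd8 differed by more than 4-fold between libraries, 3 of 22, beside 21.8% of all detected genes. Members under 1 TPM in some library were not counted there, and Hoxb4, with its 8.25-fold range, is one of them.

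**Figure D4:**
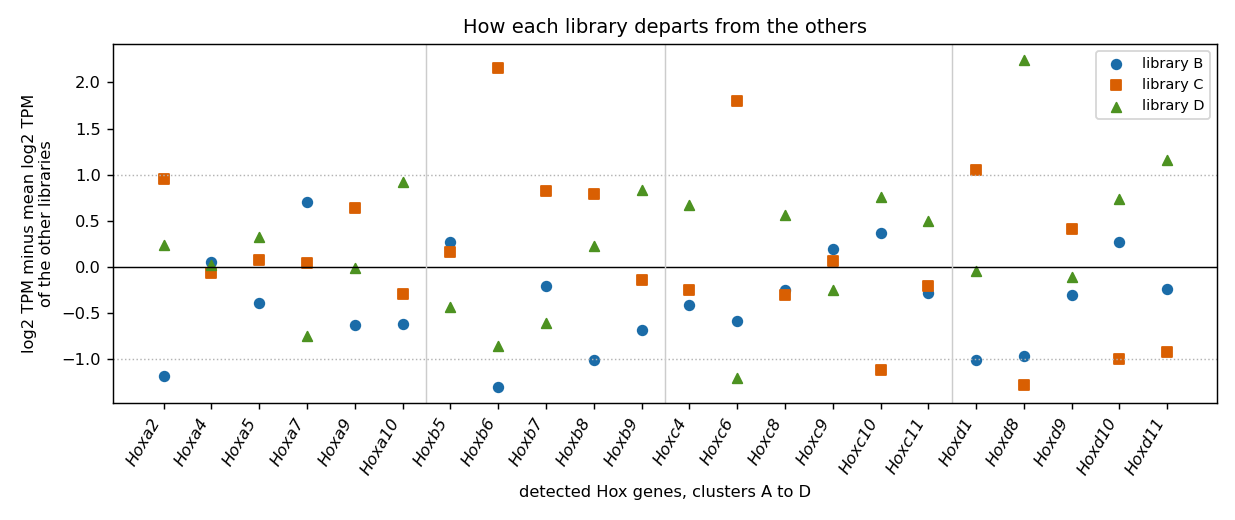
Log2 TPM of each detected Hox gene in a library minus the mean log2 TPM of the other libraries, for libraries B (circles), C (squares) and D (triangles), with genes in cluster order and dotted lines at 1 and -1. Hoxb6 and Hoxc6 stand out upward in C and Hoxd8 in D, while most other points lie within the dotted lines.

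No library was the highest for most Hox genes. Of the 22 detected members, 10 were highest in D, 8 in C and 4 in B, beside 63.1%, 21.2% and 15.7% of all detected genes. By TPM, D was highest for group 10 in each cluster that has one (Hoxa10, Hoxc10, Hoxd10) and for Hoxb9. It was also highest for the detected group 11 genes Hoxc11 and Hoxd11, and for Hoxa5, Hoxc4, Hoxc8 and Hoxd8. C was highest for Hoxa2, Hoxa9, Hoxb6, Hoxb7, Hoxb8, Hoxc6, Hoxd1 and Hoxd9. Part of this depends on the scale. By CPM, Hoxc10 (64.02, 33.17 and 56.33 in B, C and D) and Hoxd10 (44.6, 25.54 and 40.78) were highest in B. Hoxc11 and Hoxa5 were highest in C by CPM, while Hoxa10, Hoxb9, Hoxc4, Hoxc8, Hoxd8 and Hoxd11 stayed highest in D. Over all detected genes, the log2 difference of D from the mean of B and C had a median of 0.65 and rose with gene length (rho 0.482 across genes), whereas over the 22 Hox genes the median was 0.23 and rho 0.206. D also had the highest glial and mesenchymal marker levels given above and came from the fewest embryos, and the part of these in the Hox differences was not tested.

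The clusters also hold microRNA genes, whose products are known to repress Hox messages. Of the miR-196 family, Mir196a-1 and Mir196a-2 lie on the 5′ side of Hoxb9 and Hoxc9 and Mir196b lies within the exon bases of Hoxa9, and genes of the miR-10 family lie at or within group 4. The mature sequences are shown because sites for miR-196 fall in several of the most abundant members, with the seed (bases 2 to 8) in capitals, from the RefSeq table of GRCm38.p6.
miR-196a-5p (chr11:96265187-96265208, plus strand, and chr15:102973365-102973386, plus strand): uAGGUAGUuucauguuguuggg
miR-196b-5p (chr6:52230129-52230150, minus strand): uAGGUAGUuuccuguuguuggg
miR-10a-5p (chr11:96317186-96317208, plus strand): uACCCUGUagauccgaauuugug
miR-10b-5p (chr2:74726074-74726096, plus strand): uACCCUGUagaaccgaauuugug
miR-615-3p (chr15:103014969-103014990, plus strand): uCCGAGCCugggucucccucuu
The miR-196 pair shares a seed, as does the miR-10 pair. The rows of the hairpin genes had 0 counts in every library, except Mir196a-1 with 1 count in D. Libraries of this kind are not made to recover mature microRNAs, so these rows say nothing of their level.

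In 3′ untranslated regions of GENCODE M21 (GRCm38), the letters ACTACCT, which pair with the miR-196 seed, occurred in 8 of 38 Hox genes (21.1%), beside 6.1% of 21021 genes, at median lengths of 963 and 961 bases. The 8 were Hoxa4, Hoxa5, Hoxa7, Hoxa9, Hoxb1, Hoxb6, Hoxb7 and Hoxc8, and Hoxa7 held 4 such matches. All of them but Hoxb1 were detected, beside 22 of all 38 members (57.9%). Hoxb9, Hoxa10, Hoxc10, Hoxd10, Hoxc9 and Hoxb5, also among the most abundant members, held none. ACAGGGT, for miR-10, occurred in 3 of 38 (7.89%, Hoxa3, Hoxb3 and Hoxd1), beside 12.5%, and GGCTCGG, for miR-615-3p, in Hoxb4 alone (2.63%), beside 2.3%. Each match is a run of letters on the gene's own strand and not a shown site. The fullest pairing with miR-196a-5p lay in Hoxb8, the low gene between Hoxb7 and Hoxb9, in a site long known as a target that is cut. It is shown with a window of Hoxd8 and with the seed match of Hoxb7. For each gene 1 window was kept, that with the most Watson-Crick and G:U pairs together. Among these windows, Hoxd8 came next by Watson-Crick pairs alone. By all pairs Hoxa10 and Hoxd3 came next, at 19 each, beside 18 in Hoxd8. Capitals mark bases that pair by Watson-Crick rules in Hoxb8 and Hoxd8 and the seed match in Hoxb7.
Hoxb8, chr11:96284888-96284909, plus strand: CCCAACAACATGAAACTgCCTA
Hoxd8, chr2:74707120-74707141, plus strand: CtCAACAACATaAActTcCtaA
Hoxb7, chr11:96289784-96289805, plus strand: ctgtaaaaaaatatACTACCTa
In Hoxb8 21 bases paired by Watson-Crick rules and 1 as G:U, over the 22 bases of miR-196a-5p. The Hoxd8 window had 15 and 3, and the Hoxb7 window 14 and 1. Levels of these 3 genes were 2.74, 6.27 and 4.83 TPM for Hoxb8, 8.65, 7.47 and 38.1 TPM for Hoxd8 and 59.0, 95.2 and 48.9 TPM for Hoxb7 in B, C and D. Whether the sites bear on these levels was not tested.

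The start of Hoxb8 is printed for the same reason, as 250 bases before to 50 bases after the RefSeq start (GRCm38.p6, plus strand), with matches to the same motifs in capitals.
Hoxb8, chr11:96281655-96281954: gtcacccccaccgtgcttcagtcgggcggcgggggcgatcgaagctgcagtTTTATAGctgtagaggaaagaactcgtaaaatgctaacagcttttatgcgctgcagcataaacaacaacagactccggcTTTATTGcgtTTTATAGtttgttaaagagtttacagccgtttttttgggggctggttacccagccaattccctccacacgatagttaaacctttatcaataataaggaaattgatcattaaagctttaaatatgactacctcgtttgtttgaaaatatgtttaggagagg
It held TTTATNG matches at 3 places, and at 2 of them a TATAAA match on the other strand lies inside it. Such a match describes the letters and not binding.

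Between the outermost members the tables list 39 other features, of which 10 were detected and 17 had no count, beside 28.7% of all genes detected. The detected number is thus near that share. Cluster B held the 3 most abundant. Gm53, a long noncoding RNA (lncRNA) on the strand of the Hox genes between Hoxb13 and Hoxb9, was at 15.4 TPM in B, 14.7 TPM in C and 16.3 TPM in D. Gm11539, a pseudogene beside it, was at 15.9, 7.48 and 14.9 TPM, and the antisense Hoxb5os at 11, 6.71 and 14 TPM. Gm53 and Gm11539 thus stood above Hoxb13 on one side, at 0, 0.53 and 0.12 TPM, and below Hoxb9 on the other.

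In cluster D the antisense lncRNAs Hoxd3os1 and Haglr were at 5.95, 4.76 and 7.27 TPM and at 4.16, 5.57 and 3.70 TPM. Gm14426 stood at 1.34, 1.34 and 1.56 TPM on 2 or 3 counts a library. Hotair, an antisense lncRNA between Hoxc11 and Hoxc12, was at 2.10 TPM in B, 2.24 TPM in C and 5.69 TPM in D, close to Hoxc11 in level. Both were highest in D by TPM, as 63.1% of all detected genes were. By CPM Hoxc11 was not highest in D (2.656, 2.829 and 2.814 in B, C and D). In cluster A, Gm15050 was at 2.81, 5.14 and 2.59 TPM, Hoxaas3 at 3.07, 3.29 and 2.25 TPM and Hoxa11os at 1.19, 1.09 and 1.18 TPM. Hoxa11os runs antisense to Hoxa11 and covers 35% of its exon bases. The kit does not mark strand, so the low Hoxa11 count and that of Hoxa11os cannot be told apart over the shared bases. Hoxa7 shares 15.6% of its bases with Hoxaas3, Hoxb3 52.9% with Hoxb3os, and Hoxc10 8.7% with Hoxc5.

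The nearest protein-coding genes outside the clusters ranged widely in level. Evx1 and Evx2, homeobox genes beside Hoxa13 and Hoxd13, had 0 counts in every library. Skap2, beyond the anterior end of cluster A, was at 107 TPM in B, 95.8 TPM in C and 142 TPM in D. Mtx2, beyond the anterior end of cluster D, was at 16.3, 125 and 21.2 TPM, high in C as Hoxb6 was. Around cluster C, Calcoco1 was at 11.4, 8.96 and 24.8 TPM and Smug1 at 6.93, 5.69 and 17.7 TPM, both highest in D. Beside cluster B, Skap1 was at 1.38, 0.849 and 0.609 TPM and Ttll6 had counts in D alone (0.135 TPM).

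Hox proteins bind DNA with partners of the TALE class, and 9 of 9 such cofactor genes were detected, beside 28.7% of all genes. Meis3 was the most abundant, at 62.1 TPM in B, 162 TPM in C and 38.4 TPM in D, so that library C was the highest. Of the caudal factors, which activate posterior Hox genes in the early embryo, 0 of 3 were detected: Cdx2 and Cdx4 had 0 counts in every library and Cdx1 had 1 count in D. Chromatin regulators of the clusters were detected in 9 of 9 cases. The Polycomb gene Rnf2 was at 23.2 TPM in B, 14.4 TPM in C and 112 TPM in D, and Kdm6b, a demethylase of the Polycomb mark, at 13.9, 11.1 and 87.7 TPM. Both were highest in D, as 63.1% of all detected genes were.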

How the data were processed

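The authors deposited a table per library with the raw read count, CPM (the count scaled to the file total) and RPKM (CPM per kilobase of gene length) of 41388 Ensembl genes, each with exon coordinates and a length. Per the submitters' processing notes, Subread, featureCounts 1.4.5 and GRCm38.p2 were used, with no roles given, while the strand setting, the read filters and the release of the annotation were not given in the sources used here. Per the labels' protocols, cDNA was made from low input with a kit that does not mark strand.

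From the deposited counts, TPM was computed over all genes of a file with Python 3.11.15 (pandas 2.3.3, numpy 2.4.6, scipy 1.17.1). A gene at 1 TPM or more in every library was called detected. Log2 ratios within a library used a pseudocount of 0.1 TPM and are given as mean and SD over libraries. The exact sign-flip test planned for the border steps is not reported, because the pairs were picked by these levels. Folds were taken without the pseudocount. Neighbours in the order were called apart where the log2 ratio had the same sign in 3 of 3 libraries and its mean exceeded its SD. Scaling factors came from edgeR 4.0.16 (TMM) and DESeq2 1.42.0 in R 4.3.3, used for the spread between libraries and for no test. TPM and its log2 ratio between libraries were tested on simulated counts of abundant genes, with counting error as the only spread. Shares, steps within a cluster, overlaps, sequence matches and genes of low count were not part of that check.

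Identifiers were given symbols for 40254 genes from the reference tables, and 1134 stayed without one. All 38 members overlap, and 37 share start and end with, their GENCODE M21 genes. The libraries are separate pools, not single animals, and each SD covers the spread between pools only. Their counts differed by far more than counting error (chi-square per degree of freedom of 133 to 318), so each was used as 1 replicate. Library totals were 18072199 (B), 11666241 (C) and 20966139 counts (D). Counting intervals (95%) and limits at a count of 0 (3 counts) cover counting error only, since reads amplified by PCR carried no molecular identifier and need not be separate molecules.

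The members, lists, tests and rule for naming genes were chosen with earlier results of these data known. The rule names every member, of the other lists those with the highest mean TPM and those under the detection limit, each detected feature inside a cluster and the nearest protein-coding genes outside. Of the members, 15 share exon bases with another feature, and without strand their reads cannot be assigned with certainty. Alternatives were other detection limits and pseudocounts, CPM in place of TPM, members left out and each library left out. Protein sequences were not analysed here. Results for some genes the rule names are left out.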

Additional observations from a re-analysis of the deposited data

How the results depend on the processing

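Of 112 alternative values, 104 were counted as staying with the main result and none as reversed, but this tally does not measure stability. It includes the border steps, whose sign could not change because the levels picked the pairs. It also counts as kept detected numbers as far apart as 15 and 28, beside 22 in the main result. With CPM, which ignores length, cluster A held 48.7%, cluster B 27.6% and group 9 29.8% of the summed Hox level. Leaving out the 15 members that share exon bases put cluster A at 23.5%, cluster B at 54.5%, group 8 at 10.4%, group 9 at 32.8%, group 7 at 18.3% and group 10 at 19.9%. The similar shares of A and B thus failed in opposite directions under these settings. Leaving out members under 1 TPM put groups 11 to 13 at 0.94%. Without Hoxb6 and Hoxd8, an alternative chosen after seeing the data, cluster A held 39.3%. Each of these settings changes which genes or which scale enter a share. Detected members numbered 28 at a limit of 0.5 TPM, 15 at 5 TPM, 25 by CPM and 22 to 25 with a library left out. The sign of the border steps is fixed by how the pairs were picked and says nothing of stability. Their size did vary, and Hoxb13 minus Hoxb9 ranged from -9.91 with a pseudocount of 0.01 TPM to -6.17 with 1 TPM. No paired analysis was possible because the libraries form a single group. Members with under 10 counts in a library (Hoxa13, Hoxb1, Hoxb13, Hoxc12 and Hoxd13 in all 3) could not be ranked against each other at this depth.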
